A study of Rattus norvegicus with 6 samples.

Results

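The genes described here are the dopamine receptors and the striatal signalling and dopamine breakdown genes of the rat amygdala. The 8 members, chosen by gene symbol, are Drd1, Drd2, Drd3, Drd5, Adora2a, Ppp1r1b, Maoa and Maob. Each matched 1 of 32662 features in the table of expression values, and 7 of the 8 had a mean high enough to be tested. The rats were of the outbred Sprague Dawley strain, labelled male and 38 postnatal days old, and total RNA was taken from their amygdala. The B-CTRL group held 3 libraries of rats that went through behavioural testing for social play, and the NB-CTRL group held 3 libraries of rats that did not. No genetic change or drug is named in the labels of either group. Libraries were poly(A)-selected and directional, and values are FPKM, fragments scaled by transcript length and by the mapped fragments of the library. FPKM is a level per transcript length, so levels can be compared between genes. Whether the libraries come from separate animals is not stated, and the p-values measure only how far these samples spread, which may be technical.

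Dopamine acts through receptors of opposite effect. The D1-type receptors, encoded by Drd1 and Drd5, couple to stimulatory G proteins and raise cyclic AMP, and the D2-type receptors, encoded by Drd2 and Drd3, couple to inhibitory G proteins and lower it. In the striatum, Drd1 marks the projection neurons of the direct pathway, while Drd2 and the adenosine receptor gene Adora2a mark those of the indirect pathway. Ppp1r1b encodes DARPP-32, a phosphatase inhibitor switched by cyclic AMP that both neuron types hold. Maoa and Maob encode the monoamine oxidases of the outer mitochondrial membrane, which break down dopamine and other amines. In the amygdala, striatum-like neurons are found in the central nucleus and the intercalated clusters, and cortex-like excitatory neurons in the basolateral nucleus.

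Some libraries stood apart. The library labelled B-CTRL 1 carried almost no transcripts of chromosome Y. Its Eif2s3y level was 0.317 FPKM, against 51.2 and 89.95 FPKM in the other B-CTRL libraries and 49.5 to 54.2 FPKM in the NB-CTRL libraries, which goes against its label of male. B-CTRL 1 also held choroid plexus transcripts, with 7142 FPKM of Ttr against at most 27.2 FPKM elsewhere. NB-CTRL 2 held the most transcripts of hypothalamic and thalamic markers, 186 FPKM summed over 14 genes, against 25.7 to 74.1 FPKM in B-CTRL and 46.8 to 55.2 FPKM in the other NB-CTRL libraries. Amygdala markers were present in both groups, with all 13 matched central nucleus markers, Drd2 among them, and all 14 basolateral markers, Ppp1r1b among them, averaging 1 FPKM or more over the 6 libraries. Single basolateral markers came close to 0 in some libraries. Rspo2 stood at 19.3, 0.299 and 2.16 FPKM in B-CTRL 1, 2 and 3, against 0.501, 1.03 and 1.78 FPKM in NB-CTRL 1, 2 and 3. B-CTRL 2 also held the fewest transcripts of cortex-like excitatory neurons, with a mean log2 deviation of -1.64 over 9 markers. The tested members are given with the values that follow from leaving out libraries.

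The members covered a wide range of levels. Ranked by mean FPKM over the 6 libraries, the order was Ppp1r1b (1314), Adora2a (169.6), Drd2 (97.4), Drd1 (91.3), Maoa (35.2), Maob (26.3), Drd5 (2.03) and Drd3 (0.402). Other than Drd2 and Drd1, each gene lay above the next in this order in every library. Maoa, however, lay above Drd2 in B-CTRL 1, at 43.2 against 42.3 FPKM. Ppp1r1b stood 6.84 to 8.53 times above Adora2a, and Adora2a 1.63 to 1.87 times above Drd2. The order of Drd2 and Drd1 was not fixed, since Drd2 was the higher in 4 of 6 libraries and the ratio of Drd2 to Drd1 ran from 0.879 to 1.23. Drd1 lay above Maoa in 6 of 6 libraries, by as little as 1.11 times in B-CTRL 1 and as much as 5.56 times in B-CTRL 3. Ppp1r1b was among the most abundant transcripts of the tissue, ranking at places 96, 21 and 8 of 32662 in B-CTRL 1, 2 and 3 and at places 16, 99 and 18 in NB-CTRL 1, 2 and 3. Drd4, the remaining D2-type receptor gene and no member, was listed at 0 in 4 libraries and at no more than 0.0232 FPKM in NB-CTRL 2 and 3.

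**Figure D1:**
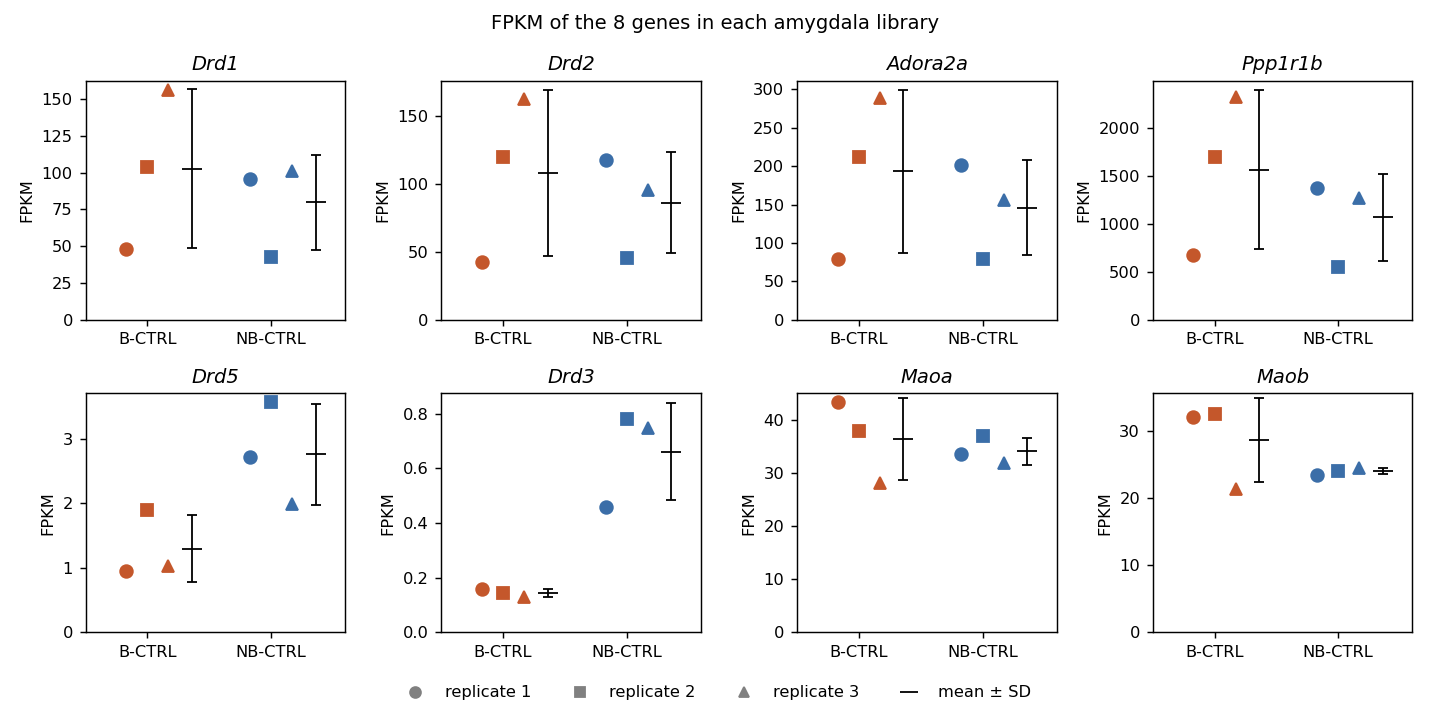
FPKM of the 8 genes (vertical axes, linear and from 0) in the 3 B-CTRL and 3 NB-CTRL libraries, with a marker for each replicate number and the mean ± SD of each group in black. The groups overlap for Drd1, Drd2, Adora2a, Ppp1r1b, Maoa and Maob, and the B-CTRL libraries lie below the NB-CTRL libraries for Drd5 and Drd3.

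The 4 abundant striatal genes were low in the same libraries and high in the same library, and none differed between the groups beyond that spread. The loci in build rn6 are chr17:11101305-11103541 for Drd1, chr8:53678776-53743642 for Drd2, chr20:14265251-14282873 for Adora2a and chr10:86303726-86312762 for Ppp1r1b, none shared with another feature. Drd1, the direct pathway receptor gene, stood at 48.1, 104 and 156 FPKM in B-CTRL 1, 2 and 3, against 95.7, 42.9 and 101 FPKM in NB-CTRL 1, 2 and 3. Each group thus held a library far below its others, and the groups overlapped. Drd1 averaged 103 ± 53.8 FPKM in B-CTRL and 79.9 ± 32.2 FPKM in NB-CTRL (SD, n = 3 each). The log2 difference was 0.30 ± 0.49 SE with a 95% interval from -0.86 to 1.46 (limma, adjusted p = 0.773).

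Drd2, the gene for the inhibitory receptor of the indirect pathway, stood at 42.3, 120 and 163 FPKM in B-CTRL 1, 2 and 3, against 118, 45.4 and 95.7 FPKM in NB-CTRL 1, 2 and 3. The lowest libraries, B-CTRL 1 and NB-CTRL 2, and the highest, B-CTRL 3, were those of Drd1. Its log2 difference was 0.23 ± 0.55 SE (95% interval -1.08 to 1.54; limma, adjusted p = 0.852). Adora2a, whose receptor raises cyclic AMP in the same neurons, stood at 79.1, 212 and 289 FPKM in B-CTRL 1, 2 and 3, against 201, 79.5 and 156 FPKM in NB-CTRL 1, 2 and 3. The same libraries were low and high again. Its log2 difference was 0.32 ± 0.53 SE (95% interval -0.94 to 1.58; limma, adjusted p = 0.78).

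Ppp1r1b stood at 674, 1692 and 2319 FPKM in B-CTRL 1, 2 and 3, against 1376, 551 and 1269 FPKM in NB-CTRL 1, 2 and 3. It had the largest ratio of highest to lowest library among these 4 genes, 4.21, against 3.63 for Drd1, 3.85 for Drd2 and 3.65 for Adora2a. The log2 difference was 0.49 ± 0.53 SE (95% interval -0.77 to 1.74; limma, adjusted p = 0.658). None of these intervals is narrow enough to exclude a 2-fold difference in the direction of a higher B-CTRL level.

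The spread within groups was larger for these 4 genes than for most features. Their within-group SD on the log2 scale was 0.78 for Drd1, 0.88 for Drd2, 0.84 for Adora2a and 0.83 for Ppp1r1b, at percentiles 95.5, 96.9, 96.5 and 96.4 of the 14043 tested features. The median feature had an SD of 0.24. Maoa and Maob had SDs of 0.24 and 0.24, at percentiles 47.9 and 48.6, so the breakdown enzymes varied no more than a typical feature. The sign of the group difference depended on single libraries for Drd1, Drd2 and Adora2a. Ppp1r1b stayed higher in B-CTRL with each single library left out, at 0.066 to 1.00. Without B-CTRL 3 the log2 difference was -0.076 for Drd1, -0.16 for Drd2 and -0.066 for Adora2a, and without NB-CTRL 2 it was -0.094 for Drd1, -0.18 for Drd2 and -0.066 for Adora2a. With B-CTRL 1 left out it was 0.77 for Drd1, 0.80 for Drd2, 0.86 for Adora2a and 1.00 for Ppp1r1b (limma, adjusted p from 0.355 to 0.39). Leaving out both B-CTRL 1 and NB-CTRL 2, an alternative chosen after seeing the data, gave 0.37 for Drd1, 0.40 for Drd2, 0.48 for Adora2a and 0.58 for Ppp1r1b (limma, adjusted p = 0.632 for each).

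**Figure D2:**
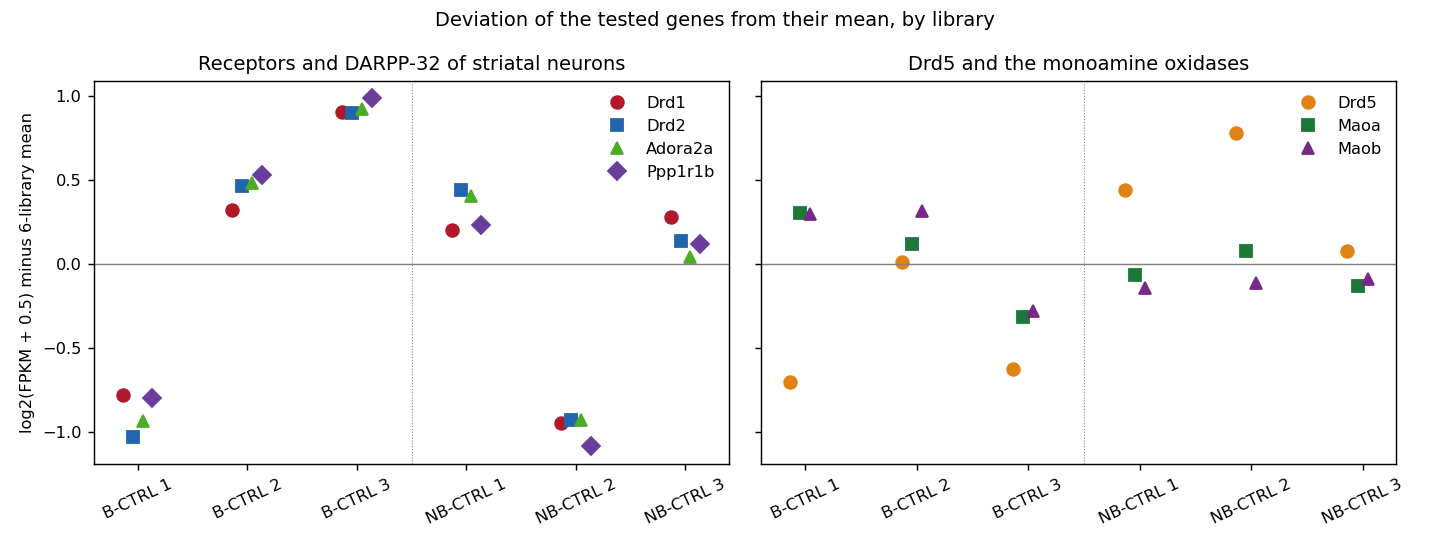
Deviation of log2(FPKM + 0.5) from the 6-library mean of each gene (vertical axis) in each library (horizontal axis), with Drd1, Drd2, Adora2a and Ppp1r1b on the left and Drd5, Maoa and Maob on the right. The 4 genes on the left move together, from between -1.08 and -0.78 in B-CTRL 1 and NB-CTRL 2 to between 0.90 and 0.99 in B-CTRL 3, and Maoa and Maob are lowest in B-CTRL 3.

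The proportions of direct and indirect pathway genes within a library spread less than their levels. The ratio of Drd1 to Drd2 was 1.14, 0.865 and 0.956 in B-CTRL 1, 2 and 3, against 0.811, 0.946 and 1.06 in NB-CTRL 1, 2 and 3. It spanned 0.48 on the log2 scale, while Drd1 and Drd2 themselves spanned 1.85 and 1.93. The log2 ratio was 0.071 higher in B-CTRL (-0.030 ± 0.20 against -0.10 ± 0.19, SD, n = 3 each; exact permutation test, 2-sided, p = 0.7), a difference smaller than the spread between libraries. The ratio of Drd1 to Adora2a was 0.608, 0.490 and 0.539 in B-CTRL 1, 2 and 3, against 0.475, 0.540 and 0.647 in NB-CTRL 1, 2 and 3. Its log2 difference was -0.017 (exact permutation test, 2-sided, p = 0.9).

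The tightest pair was Drd2 and Adora2a, the 2 indirect pathway genes. Their ratio was 0.535, 0.567 and 0.563 in B-CTRL 1, 2 and 3, against 0.586, 0.571 and 0.613 in NB-CTRL 1, 2 and 3. It was lower in each B-CTRL library than in each NB-CTRL library, by 0.088 on the log2 scale (exact permutation test, 2-sided, p = 0.1, which is the smallest that 3 against 3 can give). Adjusted over the 4 ratios compared, the p-values were 0.9, 0.9 and 0.4 in the order given, and none passed. The sign of the Drd2 to Adora2a difference turned when each library's trend with locus length was removed (0.077), and with quantile normalization the difference was -0.0024 (exact permutation test, 2-sided, p = 0.9). The Drd2 locus spans 64867 bases and the Adora2a locus 17623 bases in build rn6.

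**Figure D3:**
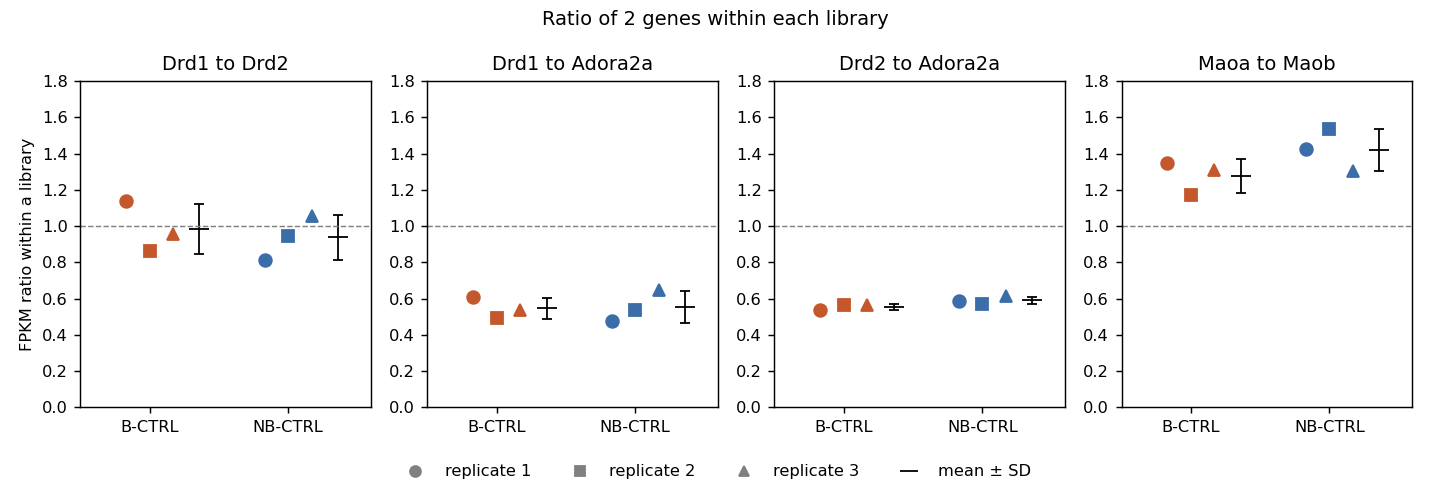
Ratio of the FPKM values of 2 genes within each library (vertical axes, linear and from 0, dashed line at 1), for the 3 B-CTRL and 3 NB-CTRL libraries, with the mean ± SD of each group in black. Drd1 to Drd2 scatters around 1, Drd2 to Adora2a stays between 0.535 and 0.613, and Maoa to Maob lies above 1 in all 6 libraries.

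Windows of 250 bases before and 50 bases after the annotated start are shown for Drd1 and Drd2, whose levels moved together, from RefSeq for assembly GRCr8 and read along the gene's strand. Of the 8 members, 6 had such a window, and Adora2a and Ppp1r1b did not. Capitals mark GC boxes (GGGCGG or its reverse complement CCGCCC) and core letters of the cyclic AMP response element (TGACG or CGTCA), searched on both strands. The Drd1 window is chr17:10546354-10546653 on the plus strand and the Drd2 window is chr8:58605153-58605452 on the plus strand.
Drd1: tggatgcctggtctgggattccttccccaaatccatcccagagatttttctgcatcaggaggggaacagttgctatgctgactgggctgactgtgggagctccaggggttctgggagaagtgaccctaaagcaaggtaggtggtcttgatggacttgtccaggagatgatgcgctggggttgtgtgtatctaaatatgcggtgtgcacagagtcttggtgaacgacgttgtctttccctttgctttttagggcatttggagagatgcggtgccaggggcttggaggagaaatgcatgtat
Drd2: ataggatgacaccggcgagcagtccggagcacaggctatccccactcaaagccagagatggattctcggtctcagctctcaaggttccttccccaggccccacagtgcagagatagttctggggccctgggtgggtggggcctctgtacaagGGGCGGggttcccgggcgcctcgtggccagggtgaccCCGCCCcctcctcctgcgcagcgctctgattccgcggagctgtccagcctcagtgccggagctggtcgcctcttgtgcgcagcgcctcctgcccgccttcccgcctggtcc
The Drd2 window held 2 GC boxes, starting 98 and 61 bases before the start site, and 67.3% G and C. The Drd1 window held no GC box and 51.7% G and C, the same as the median of all 33469 windows of that length. The bases just before the annotated Drd1 start read tctttccctttgctttttag, rich in C and T and ending in AG, as introns do. That start may thus be the start of a later exon, and the window may not cover the start of the gene, which was not tested. GC boxes were found in 33.1% of all windows, core letters of the cyclic AMP response element in 21.2% and the TATA box TATAAA in 14.2%. Neither window held the core letters or a TATA box.

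Genes that resembled the members across the 6 libraries were found by the root mean square difference between profiles of log2 deviations, over 13056 other features averaging 1 FPKM or more. The 6 libraries are shared by every such comparison, so the lists describe likeness and no more. Adora2a was the closest feature to Drd2, and Drd2 the closest to Adora2a, at 0.058 log2, where the median feature lay at 0.77 from Drd2. Among the other close features to Drd2 were AABR07026032.3, an unnamed feature on chromosome 16, Arhgap9 and Ppp1r1b. Among those closest to Drd1 were Grasp, Pik3cd, Scn4b, a sodium channel subunit gene, and Lrrc10b (0.11 to 0.13 log2). Those to Adora2a were, after Drd2, AABR07026032.3, Arhgap9, Ppp1r1b and Pik3cd. Ppp1r1b was closest to Adora2a, Drd1, Gabrd, Rarb and Gpr6 (0.12 to 0.14 log2), of which Rarb encodes a retinoic acid receptor and Gpr6 an orphan receptor of the indirect pathway. Grasp and Arhgap9 share their locus with another feature, so their values are uncertain.

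The other genes of the pathways were read in lists beside the members. Over all 14043 tested features, 0.0% passed limma at an adjusted p of 0.05 and 12.3% had an unadjusted p under 0.05, 6.25% with B-CTRL higher and 6.07% with B-CTRL lower. The groups did not overlap for 23.7% of them, against 1 of 7 members. Of the members, 0 of 7 passed, and 1 of 7, Drd5, had an unadjusted p under 0.05, a share near that background. The B-CTRL log2 mean was the higher for 49.7% of all tested features, the share to set beside the counts of higher and lower genes below. The median log2 difference over all features was -0.0024.

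Among 10 direct pathway genes the B-CTRL log2 mean was the higher for 7 and the lower for 3. The median log2 difference was 0.11, and 0 passed the test. Tac1, the gene for the substance P precursor, stood at 256, 686 and 588 FPKM in B-CTRL 1, 2 and 3, against 358, 135 and 346 FPKM in NB-CTRL 1, 2 and 3. Its log2 difference was 0.88 ± 0.49 SE (limma, adjusted p = 0.43), and 0.42 without NB-CTRL 2. Pdyn, the dynorphin precursor gene, differed by 0.21 ± 0.44 SE. Ebf1, a transcription factor gene, differed by -0.61 ± 0.32 SE.

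Among 9 indirect pathway genes the B-CTRL log2 mean was the higher for 7 and the lower for 2. The median log2 difference was 0.30, and 0 passed. Penk, the enkephalin precursor gene, stood at 659, 2370.0 and 2030.0 FPKM in B-CTRL 1, 2 and 3, against 1643, 794 and 1036 FPKM in NB-CTRL 1, 2 and 3. Its locus is shared with another feature, and its log2 difference was 0.41 ± 0.51 SE. Gpr6 differed by 0.73 ± 0.54 SE and Upb1, an enzyme of pyrimidine breakdown, by 0.30 ± 0.36 SE. Grik3, a kainate receptor gene placed in this list, went the other way, with -1.26 ± 0.50 SE (limma, unadjusted p = 0.0396, adjusted p = 0.4).

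Of 26 genes shared by both projection neuron types, 14 had a higher and 12 a lower log2 mean in B-CTRL, and 0 passed. The median was 0.0088, which ran from -0.082 to 0.16 over the other scalings and settings that kept all libraries. Arpp21, a gene for another phosphoprotein regulated by cyclic AMP, differed by 0.54 ± 0.46 SE, Rarb by 0.47 ± 0.44 SE and the retinoid receptor gene Rxrg by 0.47 ± 0.38 SE. The transcription factor gene Six3 differed by -0.38 ± 0.40 SE. Without Ppp1r1b, this list deviated on average by -0.83, 0.0067 and 0.84 in B-CTRL 1, 2 and 3, against 0.38, -0.59 and 0.20 in NB-CTRL 1, 2 and 3. The medians of all 3 lists turned sign when single libraries were left out, running from -0.076 to 0.40 for the direct pathway, from -0.066 to 0.80 for the indirect pathway and from -0.38 to 0.46 for the shared genes. Low libraries of the shared list were thus the low libraries of Drd1, Drd2, Adora2a and Ppp1r1b. In B-CTRL 2, where the list was near its mean, the deviations were 0.33 for Drd1, 0.47 for Drd2, 0.48 for Adora2a and 0.53 for Ppp1r1b.

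Markers of other cell types moved between the same libraries. In bulk tissue, fewer cells of a type and less RNA per cell cannot be told apart. The 9 matched markers of cortex-like excitatory neurons were all at a mean of at least 1 FPKM and summed to 590, 45.5 and 228 FPKM in B-CTRL 1, 2 and 3, against 60.8, 81.3 and 408 FPKM in NB-CTRL 1, 2 and 3. The shared striatal genes summed to between 2529 and 8145 FPKM in B-CTRL and between 2596 and 5501 FPKM in NB-CTRL. Of 11 choroid plexus markers, 9 were at a mean of at least 1 FPKM, and they summed to 7280.0, 15.8 and 20.9 FPKM in B-CTRL 1, 2 and 3, against 29.6, 8.21 and 5.60 FPKM in NB-CTRL 1, 2 and 3, with Otx2 at 0 throughout. The lowest libraries for the striatal genes, B-CTRL 1 and NB-CTRL 2, were thus those with the most choroid plexus and the most hypothalamic and thalamic transcripts. Where the tissue was cut is not given in the sources used here, and the part of these markers in the members' levels was not tested.

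**Figure D4:**
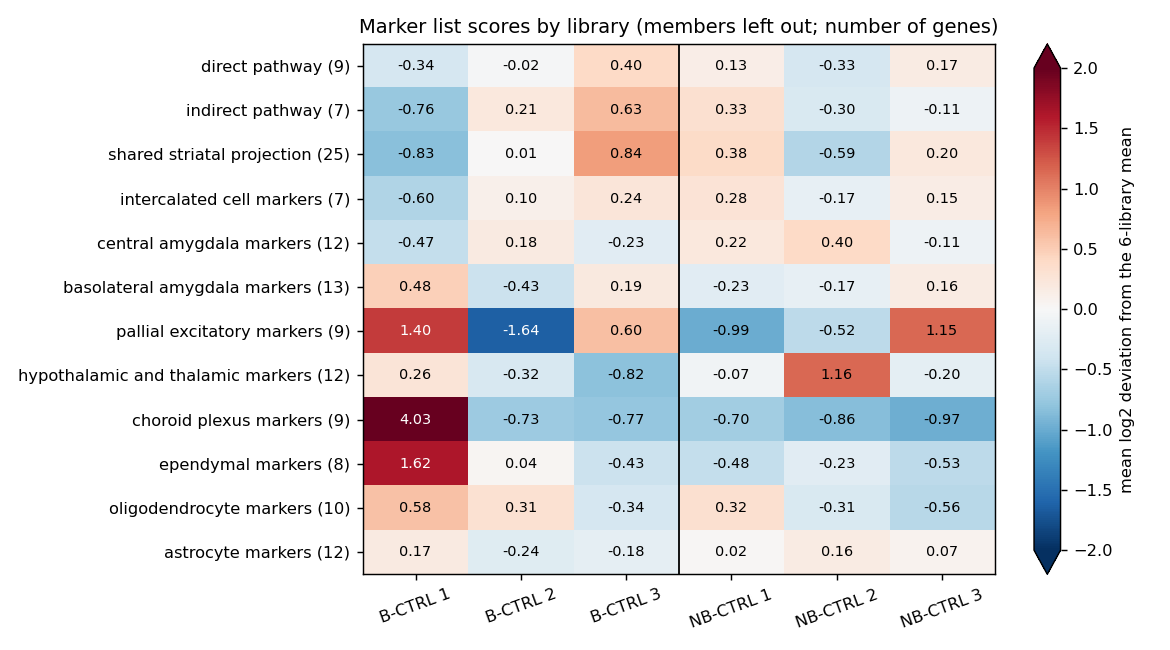
Mean log2 deviation from the 6-library mean over the tested genes of 12 marker lists (rows, members left out, number of genes in brackets) in each library (columns, B-CTRL left of the line). The colour scale ends at 2 in each direction, and the choroid plexus score of 4.03 in B-CTRL 1 lies beyond it. The shared striatal list runs from -0.83 in B-CTRL 1 to 0.84 in B-CTRL 3.

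For both scarce receptors the groups did not overlap, and neither passed the test. Drd5, the other D1-type receptor gene, at chr14:77220578-77222006, stood at 0.955, 1.89 and 1.03 FPKM in B-CTRL 1, 2 and 3, against 2.71, 3.57 and 1.99 FPKM in NB-CTRL 1, 2 and 3. Each B-CTRL library lay below each NB-CTRL library, as was also the case for 12.0% of all tested features. Drd5 averaged 1.29 ± 0.519 FPKM in B-CTRL and 2.76 ± 0.787 FPKM in NB-CTRL (SD, n = 3 each). The log2 difference was -0.87 ± 0.28 SE with a 95% interval from -1.55 to -0.20, and did not pass over all features (limma, unadjusted p = 0.0185, adjusted p = 0.4). Leaving out single libraries gave values from -1.10 to -0.70, and leaving out both B-CTRL 1 and NB-CTRL 2 gave -0.57. Its closest features were Elfn1, Kcnk3, Gbx1, Gbx2 and Ccer2 (0.13 to 0.17 log2), none of them in the striatal lists. Gbx1 and Gbx2 encode homeobox transcription factors and Kcnk3 a potassium leak channel.

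Drd3, the D2-type receptor gene known from the islands of Calleja, at chr11:61822076-61874327, stood at 0.158, 0.143 and 0.130 FPKM in B-CTRL 1, 2 and 3, against 0.457, 0.779 and 0.747 FPKM in NB-CTRL 1, 2 and 3. The groups did not overlap, and the B-CTRL libraries lay within 0.0138 FPKM of each other in SD. Its mean of 0.402 FPKM lay under the limit of 0.5 FPKM set for the test. With no limit and 19104 features tested, its log2 difference on the log2(FPKM + 0.5) scale was -0.84 ± 0.14 SE, which did not pass (limma, unadjusted p = 0.000762, adjusted p = 0.489). With single libraries also left out it ran from -0.97 to -0.76, and with B-CTRL 1 and NB-CTRL 2 both left out it was -0.78, alternatives chosen after seeing the data (limma, adjusted p from 0.149 to 0.741). Of those features 0.0% passed, 9.82% had an unadjusted p under 0.05 and 10.1% had every B-CTRL library below every NB-CTRL library. At these levels few fragments lie behind a value, and how many is unknown. Drd5 and Drd3 were highest in NB-CTRL 2, which was also the library highest in hypothalamic and thalamic markers (186 FPKM summed). Drd3 was nearly as high in NB-CTRL 3, where those markers summed to 46.8 FPKM. Drd5 was lowest in B-CTRL 1, where they summed to 74.1 FPKM. The part of those markers was not tested.

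**Figure D5:**
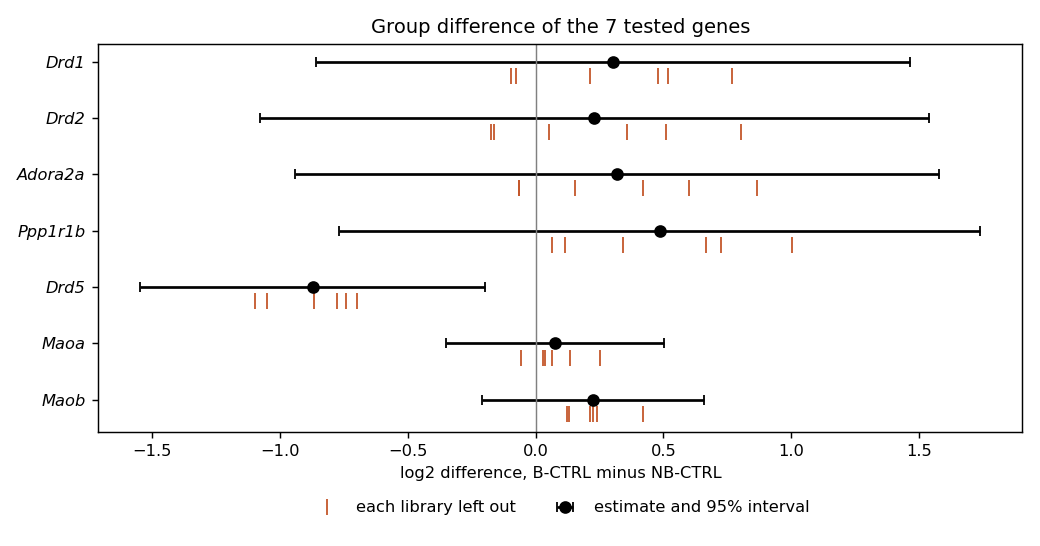
Log2 difference of B-CTRL minus NB-CTRL (horizontal axis) for the 7 tested genes, with the 95% interval from limma in black and the value with each library left out as red ticks. The interval of Drd5 lies below 0, those of the other genes span 0, and the ticks of Drd1, Drd2, Adora2a and Maoa fall on both sides of 0.

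Tested genes for dopamine receptors and the G proteins, cyclases, kinases and phosphatases around them numbered 45. The B-CTRL log2 mean was the higher for 16 and the lower for 29, and the median log2 difference was -0.12. That median was -0.021 with B-CTRL 2 left out and -0.25 with B-CTRL 3 left out, and it was -0.019 with median scaling and -0.036 with the length trend removed. None passed, and those with an unadjusted p under 0.05 were 0 higher and 2 lower, Drd5 and Adcy6. Over all tested features the shares were 6.25% higher and 6.07% lower, so the count was not above background. Adcy6, an adenylyl cyclase gene, stood at 7.79, 5.28 and 5.75 FPKM in B-CTRL 1, 2 and 3, against 9.69, 12.4 and 9.42 FPKM in NB-CTRL 1, 2 and 3. It was lower in every B-CTRL library than in every NB-CTRL library, as were 12.0% of all tested features. Its log2 difference was -0.71 ± 0.20 SE (limma, unadjusted p = 0.0087, adjusted p = 0.4). Ppp1cb, a catalytic subunit of the phosphatase that DARPP-32 inhibits, lay above NB-CTRL in every B-CTRL library, by 0.36 ± 0.16 SE on the log2 scale, as did 11.7% of all tested features. The receptor kinase gene Grk6 differed by -0.40 ± 0.19 SE. Ppp3ca, the calcineurin subunit gene, and Caly, the gene for the vesicle protein calcyon, had the highest means of the list and differed by 0.089 ± 0.37 SE and 0.17 ± 0.21 SE.

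In the adenosine system the B-CTRL log2 mean was the higher for 7 of 8 tested genes, the median was 0.15, and 0 passed. With B-CTRL 3 left out the median was 0.00014, with NB-CTRL 2 left out 0.015 and with B-CTRL 1 left out 0.34. Adora2b, the low-affinity adenosine receptor gene, stood at 4.56, 3.82 and 6.72 FPKM in B-CTRL 1, 2 and 3, against 3.39, 3.07 and 3.13 FPKM in NB-CTRL 1, 2 and 3. Every B-CTRL library lay above every NB-CTRL library, as for 11.7% of all tested features. The log2 difference of Adora2b was 0.55 ± 0.22 SE (limma, unadjusted p = 0.0422, adjusted p = 0.4). Adk, the adenosine kinase gene, differed by 0.33 ± 0.16 SE, Nt5e, an enzyme that makes adenosine outside the cell, by 0.23 ± 0.19 SE, and the ectonucleotidase gene Entpd2 by -0.22 ± 0.13 SE. Adk shares its locus with another feature.

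The genes of the dopamine breakdown enzymes lie side by side on chromosome X, Maoa at chrX:6554697-6620722 and Maob at chrX:6430593-6533534 in build rn6, with 21162 bases between them. Maoa stood at 43.2, 37.9 and 28.0 FPKM in B-CTRL 1, 2 and 3, against 33.4, 36.8 and 31.8 FPKM in NB-CTRL 1, 2 and 3. The highest and the lowest value both came from B-CTRL, and the groups overlapped. The log2 difference was 0.076 ± 0.18 SE (95% interval -0.35 to 0.50; limma, adjusted p = 0.85). Leaving out B-CTRL 1 turned it to -0.058. Maob stood at 32.0, 32.4 and 21.3 FPKM in B-CTRL 1, 2 and 3, against 23.5, 24.0 and 24.4 FPKM in NB-CTRL 1, 2 and 3. The NB-CTRL libraries were close together (24.0 ± 0.471 FPKM), and B-CTRL libraries lay on both sides of them (28.6 ± 6.29 FPKM, SD, n = 3 each). The log2 difference was 0.23 ± 0.18 SE (95% interval -0.21 to 0.66; limma, adjusted p = 0.547). It became 0.42 when B-CTRL 3 was left out and 0.45 after removal of the length trend, neither past the threshold (limma, adjusted p = 0.114 and 0.445). With B-CTRL 1 left out it fell to 0.13, and with B-CTRL 2 left out to 0.12.

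Maoa was above Maob in 6 of 6 libraries. The ratio of Maoa to Maob was 1.35, 1.17 and 1.31 in B-CTRL 1, 2 and 3, against 1.42, 1.53 and 1.30 in NB-CTRL 1, 2 and 3. It was 0.15 lower in B-CTRL on the log2 scale, with overlap (0.34 ± 0.11 against 0.49 ± 0.12, SD, n = 3 each; exact permutation test, 2-sided, p = 0.3, 0.6 adjusted over the 4 ratios). Maoa and Maob had deviations of -0.31 and -0.28 in B-CTRL 3, the library in which Drd1, Drd2, Adora2a and Ppp1r1b were highest, and of 0.31 and 0.30 in B-CTRL 1, where those genes were low. NB-CTRL 2, also low in the striatal genes, did not show this, with 0.077 for Maoa and -0.11 for Maob. Astrocytes are a known site of Maob, and 12 astrocyte markers had mean deviations of 0.17, -0.24 and -0.18 in B-CTRL 1, 2 and 3, against 0.016, 0.16 and 0.066 in NB-CTRL 1, 2 and 3. The markers did not move as one in B-CTRL 2. There Slc1a2, at 45.2 FPKM against 135 to 170.3 FPKM in the other libraries, was lowest, while S100b, at 1178 FPKM, was highest. S100b stood at 1063, 1178 and 884 FPKM in B-CTRL 1, 2 and 3, against 783, 832 and 819 FPKM in NB-CTRL 1, 2 and 3. Over the 12 astrocyte markers the B-CTRL log2 mean was the higher for 4 and the lower for 8. Their median log2 difference was -0.079, while that of Maob was 0.23. The part of cell types in the enzyme levels was not tested. The closest features to Maob were St3gal6, Cisd2, Rab10, LOC100125364 and Cd302 (0.020 to 0.047 log2), and those to Maoa were Slc35f5, Hpdl, Rab8b, Tipinl1 and Canx (0.043 to 0.052 log2). LOC100125364 and Rab8b share their loci with other features.

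The windows at the starts of these neighbouring genes are shown because the enzymes are a pair with like levels. The Maoa window is chrX:8681323-8681622 on the minus strand and the Maob window is chrX:8490155-8490454 on the plus strand of GRCr8, with capitals as above.
Maoa: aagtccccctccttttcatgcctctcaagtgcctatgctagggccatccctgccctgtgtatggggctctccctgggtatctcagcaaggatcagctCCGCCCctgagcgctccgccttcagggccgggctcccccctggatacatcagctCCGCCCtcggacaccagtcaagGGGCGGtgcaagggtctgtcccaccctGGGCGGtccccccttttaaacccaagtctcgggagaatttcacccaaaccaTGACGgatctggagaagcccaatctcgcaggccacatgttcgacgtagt
Maob: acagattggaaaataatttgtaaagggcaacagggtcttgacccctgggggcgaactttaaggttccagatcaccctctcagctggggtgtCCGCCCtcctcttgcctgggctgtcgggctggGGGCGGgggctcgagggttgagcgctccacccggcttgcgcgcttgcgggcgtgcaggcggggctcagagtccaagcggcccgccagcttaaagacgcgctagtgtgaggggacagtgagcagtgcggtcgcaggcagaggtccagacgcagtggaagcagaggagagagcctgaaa
The Maoa window held 4 GC boxes and the Maob window 2, and no TATA box was found in either. The letters TGACG began at base 2 from the annotated start in the Maoa window and were not found in the Maob window. The bases from that start read ATGACG, opening with a start codon, so it may be the start of the protein. The match may thus be coding sequence, and a role as a response element was not tested. The G and C share was 61.0% for Maoa and 63.0% for Maob.

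Of 14 tested genes for dopamine synthesis, transport and breakdown, the B-CTRL log2 mean was the higher for 9 and the lower for 5. The median was 0.082, and 0 passed. With B-CTRL 1 left out the median was 0.0063, with B-CTRL 2 left out 0.028 and with NB-CTRL 3 left out 0.136. Th, the rate-limiting enzyme gene of dopamine synthesis, stood at 0.645, 1.64 and 0.619 FPKM in B-CTRL 1, 2 and 3, against 2.04, 1.38 and 1.41 FPKM in NB-CTRL 1, 2 and 3. The groups overlapped through B-CTRL 2, and the log2 difference was -0.58 ± 0.31 SE (limma, adjusted p = 0.421). Slc6a3, the dopamine transporter gene, did not exceed 0.0791 FPKM in any library, and Foxa2, a transcription factor of midbrain dopamine neurons, was listed at 0 in all 6. Akr1b1, an aldose reductase gene, was the only gene of the list without overlap, where 23.7% of all tested features had none. It stood at 57.8, 74.96 and 56.0 FPKM in B-CTRL 1, 2 and 3, against 46.1, 50.5 and 50.2 FPKM in NB-CTRL 1, 2 and 3. Its log2 difference was 0.35 ± 0.15 SE (limma, adjusted p = 0.4). Slc29a4, a low-affinity monoamine transporter gene, differed by -0.37 ± 0.18 SE and the aldehyde dehydrogenase gene Aldh2 by 0.16 ± 0.17 SE.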

How the data were processed

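The deposited table gives 1 FPKM column for each of 6 amygdala RNA-seq libraries, computed by the authors. Build rn6, Cuffdiff 2.2.1 and STAR 2.5.4b are listed, per the submitters' processing notes. The settings, the annotation release and each library's lane were not given in the sources used here. Since FPKM hold no counts, depth is unknown in absolute terms. Steps between low values gave a rough depth relative to NB-CTRL 1 of 1.09, 0.72 and 1.39 for B-CTRL 1, 2 and 3 and 1.63 and 1.63 for NB-CTRL 2 and 3, with 28.8% to 40.1% of low features within 0.05 log2 of it.

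Values were taken as log2(FPKM + 0.5), and the 14043 of 32662 features averaging 0.5 FPKM or more were tested. This scale understates fold changes of low genes. The group comparison used limma 3.58.1 under R 4.3.3 (B-CTRL minus NB-CTRL, intensity trend, 2-sided, Benjamini-Hochberg, threshold 0.05). Ratios within a library were compared with exact permutation tests in SciPy 1.17.1, which cannot go below 0.1 here. On simulated data with 200 of 13908 features changed, the fit called 43% at a 2-fold and 90% at a 4-fold change and made 5 false calls. The changed features were drawn from higher levels than Drd5 and Drd3, with noise independent between features. Most features also spread less than Drd1, Drd2, Adora2a and Ppp1r1b. These shares thus do not give how often a change in the members would be called.

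The members and lists were chosen with earlier results of these data known. Named genes are the members, the 4 with the lowest p and 2 with the highest mean of each pathway list, and the 5 with the closest profile to each tested member; some of these are not reported here. Eif2s3y, Ttr, Otx2, Foxa2, Slc6a3, Drd4, Rspo2, Slc1a2 and S100b were named after their values were seen. Of 266 symbols written, 254 matched a feature, 4 of them by another name in RefSeq (assembly GRCr8). Alternatives were quantile normalization and median scaling, weights per library, robust moderation and a fit with no trend, a limit of 1 FPKM or none, pseudocounts of 0.1 and 1, a block for the replicate number, removal of the trend with locus length (loess, span 0.5), and leaving out each library. Leaving out B-CTRL 1 together with NB-CTRL 2 was added after seeing the data, as were fits of Drd3 with no limit and libraries left out.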

Additional observations from a re-analysis of the deposited data

How the results depend on the processing

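None of the 7 tested members passed limma's threshold as reported or in any of 18 alternative fits. Over all features 0 passed (1730 with an unadjusted p under 0.05). Leaving out single libraries gave 0 to 1 passing features (1 without NB-CTRL 3, SNORA70) and 516 to 3644 with an unadjusted p under 0.05, and leaving out B-CTRL 1 and NB-CTRL 2 together gave 1 (SNORD94). Drd5 stayed lower in B-CTRL (-1.10 to -0.70 without single libraries, -1.06 to -0.72 in the other planned settings), Ppp1r1b higher (0.066 to 1.00 and 0.028 to 0.58), and Maob higher (0.12 to 0.42 and 0.22 to 0.45). With library weights the log2 difference was -0.11 for Drd1, -0.26 for Drd2 and -0.15 for Adora2a. Without single libraries it ran from -0.094 to 0.77 for Drd1, from -0.18 to 0.80 for Drd2, from -0.066 to 0.86 for Adora2a and from -0.058 to 0.25 for Maoa, and without B-CTRL 1 and NB-CTRL 2 together it was -0.00055 for Maoa.

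The ratio of Drd1 to Drd2 differed by -0.19 with the length trend removed, by -0.035 to 0.16 without single libraries and by -0.025 without B-CTRL 1 and NB-CTRL 2. That of Drd1 to Adora2a differed by 0.070 with quantile normalization and by -0.12 to 0.0999 without single libraries, and that of Drd2 to Adora2a by 0.077 with the length trend removed and by -0.11 to -0.060 without single libraries. That of Maoa to Maob ran from -0.21 to -0.089. Drd2 to Adora2a differed by -0.0024 with quantile normalization. Of 26 list genes chosen by the naming rule, none passed in any fit, and 3 turned sign when single libraries were left out (Pdyn -0.077 to 0.70, Ppp3ca -0.27 to 0.30, Six3 -0.77 to 0.077). In other settings 4 turned (Caly, Pdyn, Penk and Ppp3ca). Without single libraries Tac1 ran from 0.42 to 1.31, Grik3 from -1.81 to -0.73, Adcy6 from -0.86 to -0.59, Adora2b from 0.34 to 0.71, Akr1b1 from 0.22 to 0.43 and Th from -0.88 to -0.42. The cause of these turns was not tested. Same-numbered libraries did not deviate together in every pair (correlations of -0.22, 0.072 and 0.15 over 14043 features). Libraries also differed in their tissue markers, so this check can neither show nor exclude a pairing. With the replicate number as a block, 0 features and 0 members passed, 1463 features had an unadjusted p under 0.05, and Drd5 differed by -0.87 (limma, adjusted p = 0.447, against 0.204 to 0.685 over the other alternatives).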
